A study of Mus musculus with 16 samples.

Results

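Hearts that kept 1 functional MuRF2 allele and no MuRF1 were set against hearts that kept 1 functional MuRF1 allele and no MuRF2. The first group holds the 4 arrays titled MuRF1 -/- // MuRF2 +/- (MuRF1 null MuRF2 het), the second the 4 arrays titled MuRF1 +/- // MuRF2 -/- (MuRF1 het MuRF2 null), and together they are 8 of the 16 arrays of the series. The other 8 arrays, 4 MuRF1 -/- // MuRF2 -/- (double null) and 4 MuRF1 +/+ // MuRF2 +/+ (wild type), entered the fit and give the levels that both groups can be read against. All mice were 12 weeks old and strain-matched per the labels, whose entries give neither the strain and sex of the heart donors nor which part of each gene was deleted. Every array carried heart RNA in the Cy5 channel and is titled a biological replicate, without saying whether hearts were pooled. The Cy3 channel held the common reference of the series, a pool of RNA from entire C57BL/6 mice at postnatal day 1. Each value below is the log2 ratio of heart Cy5 over reference Cy3 unless it is said to be Cy5 or Cy3 alone, and each difference is MuRF1 null MuRF2 het minus MuRF1 het MuRF2 null.

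The genes Trim63, Trim55 and Trim54 encode MuRF1, MuRF2 and MuRF3, a small family of RING finger proteins made in striated muscle. They sit at the sarcomere, where MuRF1 binds the giant elastic protein titin, and MuRF1 acts as a ubiquitin ligase that marks muscle proteins for the proteasome. MuRF1 and MuRF2 are close relatives, and the question put by this pair of genotypes is what differs between a heart left with one allele of either.

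The probe of Trim63 with the brighter signal begins ccaaaacgtcacaggacacttttctacgtt (its first 30 of 60 bases, placed at chr4:133707547-133707606 by the array files, which name no genome build). It is shown because Trim63 had the smallest p of all genes tested. Trim63 stood at -0.34, -0.85, -0.75 and -0.60 in the 4 MuRF1 null MuRF2 het arrays, against 2.11, 2.13, 1.83 and 1.70 in the 4 MuRF1 het MuRF2 null arrays. Every array without MuRF1 lay far below every array with 1 MuRF1 allele. The difference was -2.58 ± 0.14 (SE; limma with Benjamini-Hochberg adjustment over all genes, adjusted p = 4.79e-08), a ratio 5.97-fold lower. The same gene averaged -0.72 in double null and 2.63 in wild type hearts, and the difference from wild type was -3.27 for MuRF1 null MuRF2 het and -0.69 for MuRF1 het MuRF2 null (adjusted p = 1.25e-09 and 0.018, limma). Both comparisons share the wild type arrays. Trim63 was well above background on 2 of 4 MuRF1 null MuRF2 het arrays and on 4 of 4 MuRF1 het MuRF2 null arrays. The second Trim63 probe, which begins aaacagacaaacaaacaaaaaaccgatcca at chr4:133695737-133695796, was above background on 0 of 4 and 2 of 4 arrays and differed by -0.22 (adjusted p = 0.121).

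Trim55 gave no such separation, and its 2 channels have to be read apart. Its probe begins agagagagagacataaaggacacttgatca (first 30 of 60 bases, chr3:19376501-19376560 in the array files). The ratio was -0.92, -1.61, -0.44 and -1.14 in MuRF1 null MuRF2 het arrays, against -1.32, -1.53, -1.20 and -1.09 in MuRF1 het MuRF2 null arrays. The groups overlapped, and the difference of 0.25 had a 95% interval of -0.27 to 0.78 (limma, adjusted p = 0.522). Double null arrays averaged -1.35 and wild type arrays -1.73, so in the ratio neither group titled MuRF2 -/- averaged below the wild type group. In Cy5 alone the MuRF1 het MuRF2 null arrays, at 6.77 to 6.90, lay below the wild type arrays, at 7.32 to 8.21. The double null arrays, also titled MuRF2 -/-, ran from 7.762 to 8.895 in Cy5 and did not lie below wild type. In Cy5 alone Trim55 was 1.73 higher in MuRF1 null MuRF2 het hearts (limma, adjusted p = 0.000209), without overlap. The pup reference spotted under the same probe was 1.49 higher as well (limma, adjusted p = 1.75e-09). That reference stood at 8.83 to 9.24 in Cy3 on the 4 MuRF1 het MuRF2 null arrays and at 10.01 to 10.81 on the other 12. Whether the probe lies in the deleted part of Trim55 is not given, so it does not check the MuRF2 labels, and the genotype names used here are those of the labels.

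Trim54, which encodes the third family member, averaged 2.60 ± 0.13 in MuRF1 null MuRF2 het hearts and 2.30 ± 0.18 in MuRF1 het MuRF2 null hearts (SD, n = 4 each). The difference of 0.30 did not pass (limma, adjusted p = 0.101), and it was -0.47 when arrays were centred on the median in place of loess.

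**Figure D1:**
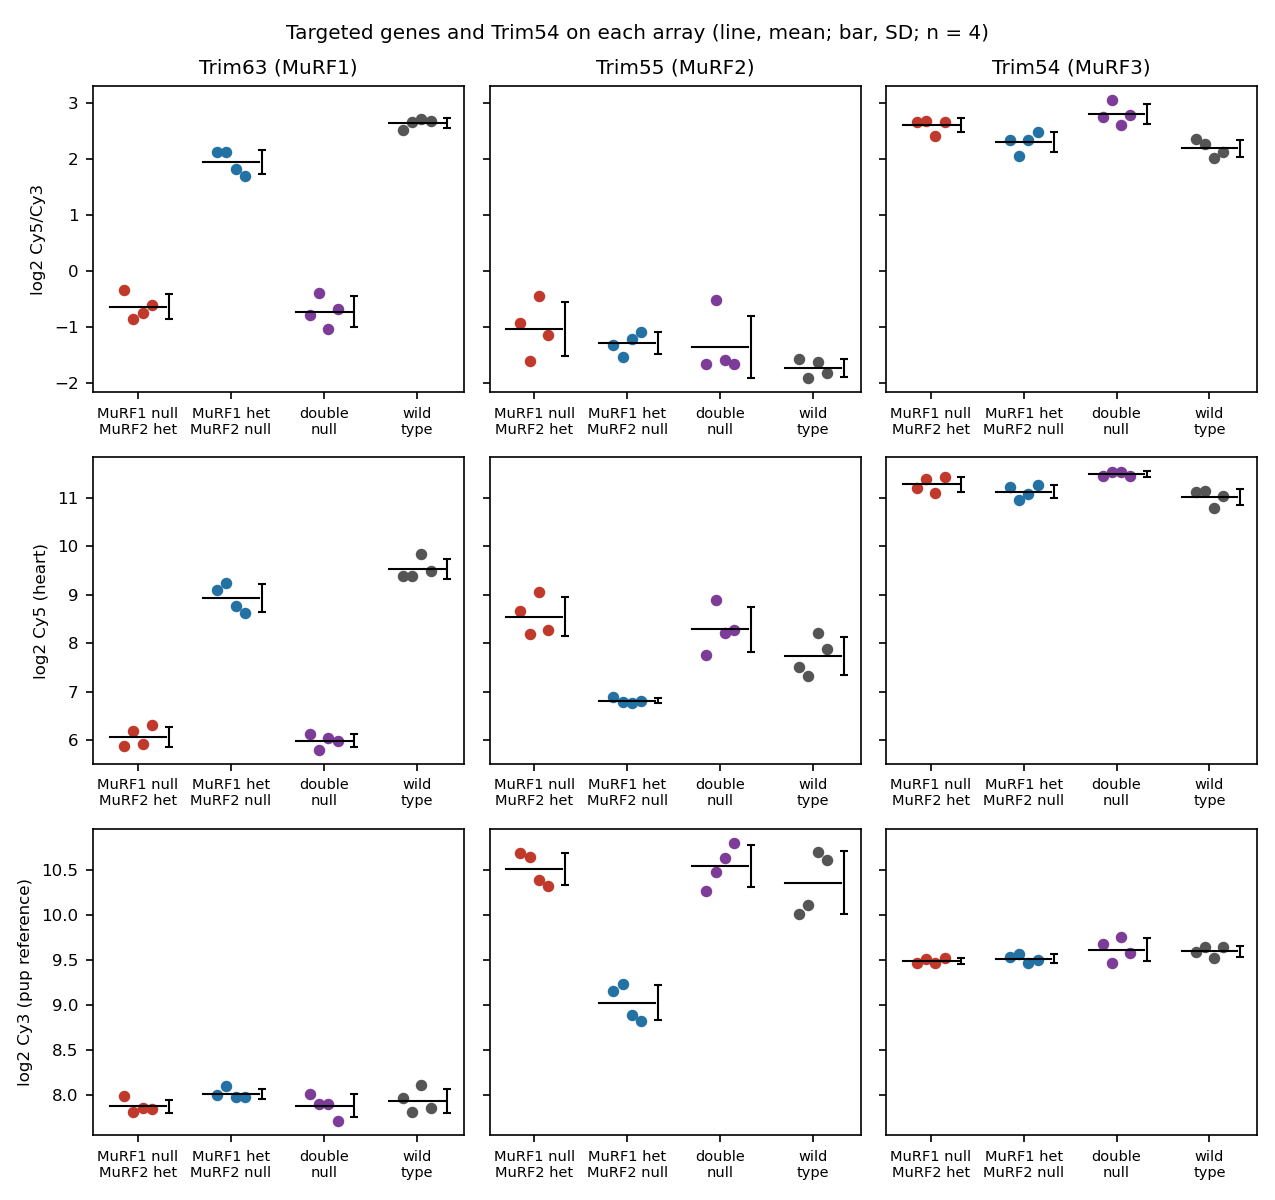
Log2 ratio (top row), log2 Cy5 (middle) and log2 Cy3 (bottom) of Trim63, Trim55 and Trim54 on each array by genotype, with the group mean as a line and the SD as a bar (n = 4). Trim63 splits the genotypes with and without MuRF1 in the ratio and in Cy5, whereas Trim55 is low in Cy5 and in the Cy3 reference alike on the MuRF1 het MuRF2 null arrays.

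The arrays themselves differed between the groups. All MuRF1 null MuRF2 het arrays lay on 1 slide, and all MuRF1 het MuRF2 null arrays on another that was scanned on another day and read with another software version. Genotype, slide and scan day therefore cannot be told apart. Between 6420 and 15076 Cy5 probes were well above background on MuRF1 null MuRF2 het arrays, against 16139 to 17401 on MuRF1 het MuRF2 null arrays (exact permutation p = 0.0286, two-sided, the smallest that 4 against 4 can give). Array 1 of MuRF1 null MuRF2 het was the dimmest of the 8, and the median SD of a gene was 0.18 over the MuRF1 null MuRF2 het arrays, against 0.097 over the MuRF1 het MuRF2 null arrays. The pup reference, which should be alike on all arrays, differed between the 2 groups for 6853 of 12345 genes (55.5%, limma on Cy3 alone). On the slide of the MuRF1 null MuRF2 het arrays the reference differed from that on the 2 slides with wild type and double null arrays for 3 genes, and on the slide of the MuRF1 het MuRF2 null arrays for 7284 (59%).

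Across the 12345 genes tested, 567 (4.59%) were higher and 484 (3.92%) lower in MuRF1 null MuRF2 het than in MuRF1 het MuRF2 null hearts, 1051 in all (8.51%, limma, adjusted p under 0.05). For 2484 genes (20.1%) the arrays of the groups did not overlap in the ratio, with MuRF1 null MuRF2 het above for 11.9% of genes and below for 8.2%. Most differences were small, since 14 genes were over 2-fold higher and 21 over 2-fold lower. In Cy5 alone 844 genes (6.84%) were higher and 954 (7.73%) lower, and 378 genes (3.06%) passed in both measures with the same direction, 168 higher and 210 lower. Of the 1051 calls, 686 were of genes whose reference differed too, in 518 of them in the direction opposite to the ratio, and among the 5492 genes whose reference did not pass, 114 were higher and 196 lower. The balance of the calls depended on the processing. The share of calls that were higher was 53.9%, against 38.6% with the log ratio made in Feature Extraction and 65.6% with median centring. The median difference of all genes was -0.15 and -0.16 under these, against 0.02 with loess. Leaving out MuRF1 null MuRF2 het array 1, 2, 3 or 4 gave 404, 2103, 348 and 658 calls, and leaving out MuRF1 het MuRF2 null array 1, 2, 3 or 4 gave 228, 339, 564 and 347.

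**Figure D2:**
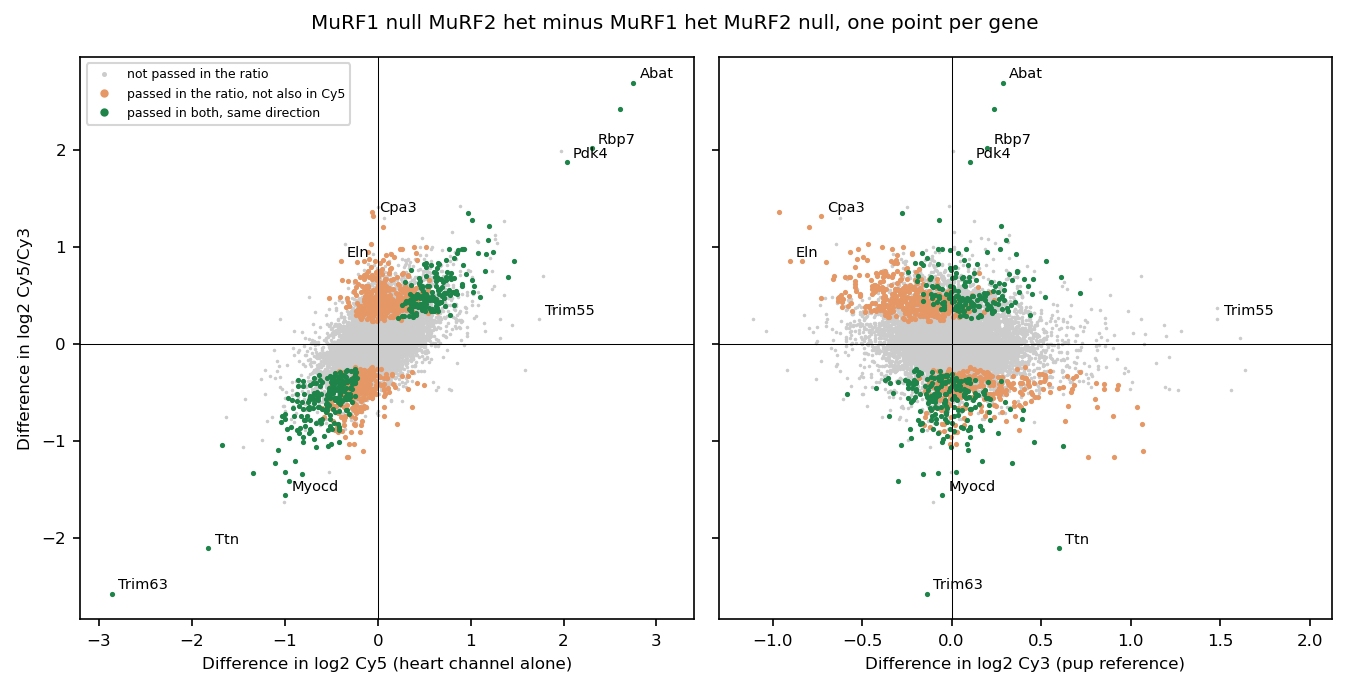
Difference in the log2 ratio (y axis) against the difference in Cy5 alone (left) and in the Cy3 reference alone (right), MuRF1 null MuRF2 het minus MuRF1 het MuRF2 null, 1 point per gene. The 378 green genes passed in the ratio and in Cy5 with the same direction; the orange genes passed in the ratio but not also in Cy5, and those high in the ratio, such as Eln and Cpa3, mostly lie left of 0 in the reference.

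The largest rises in MuRF1 null MuRF2 het hearts included enzymes of fuel use and of the defence against reactive compounds. Pdk4 encodes the pyruvate dehydrogenase kinase that turns the heart from glucose to fat. It stood at 1.66, 0.69, 0.97 and 0.34 in MuRF1 null MuRF2 het arrays, against -0.69, -1.57, -1.25 and -0.35 in MuRF1 het MuRF2 null arrays. All 4 arrays of the first group were above all 4 of the second, and the difference was 1.88 ± 0.25 (SE; limma, adjusted p = 0.00182). Wild type hearts averaged 0.69 and double null hearts 0.90, so that the MuRF1 het MuRF2 null group was the one apart, 1.66 below wild type (limma, adjusted p = 0.00503).

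Rbp7, a retinol-binding protein, rose by 2.02 (limma, adjusted p = 0.00959). Its arrays stood at 3.48, 1.67, 2.03 and 1.50 in MuRF1 null MuRF2 het, against -0.23, -0.51, 1.05 and 0.29 in MuRF1 het MuRF2 null. The groups did not overlap, although each spread over more than 1 log2 unit, and a second Rbp7 probe rose by 0.91 (limma, adjusted p = 0.0295). Abat, the GABA transaminase, had the largest rise of the 15 named, at 2.70 (limma, adjusted p = 0.0316), with 2.19, 1.30, 5.67 and 3.53 in MuRF1 null MuRF2 het arrays, against 0.06, 0.22, 1.20 and 0.41 in MuRF1 het MuRF2 null arrays. Array 3 of each group was its highest. The second Abat probe differed by 0.46 and did not pass (limma, adjusted p = 0.12), and Abat kept its call in 3 of 8 fits that left 1 array out, with 1.87 (limma, adjusted p = 0.0778) without MuRF1 null MuRF2 het array 3.

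Gsta1, a glutathione transferase, stood at -0.43, -0.53, -0.83 and 0.41 in MuRF1 null MuRF2 het arrays, against -1.52, -1.65, -1.54 and -1.54 in MuRF1 het MuRF2 null arrays. It rose by 1.22 (limma, adjusted p = 0.00507) and was equally far above wild type, at 1.22 (limma, adjusted p = 0.0147). The mean was -1.56 in MuRF1 het MuRF2 null and -1.56 in wild type hearts. Twf2, an actin-capping twinfilin, rose by 0.98 (limma, adjusted p = 0.00182) in 2 of 2 probes. Skp1, a subunit of SCF ubiquitin ligases, had arrays close together within each group, with 1.03, 0.97, 1.16 and 1.12 in MuRF1 null MuRF2 het arrays, against 0.18, 0.14, 0.15 and 0.05 in MuRF1 het MuRF2 null arrays (difference 0.94, limma, adjusted p = 0.00168). As with Pdk4, the wild type mean of Skp1, 0.93, was near that of the MuRF1 null MuRF2 het hearts.

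Asns, asparagine synthetase, rose by 1.08 (limma, adjusted p = 0.0171), with -0.61, -1.54, -1.55 and -1.07 in MuRF1 null MuRF2 het arrays, against -2.18, -2.28, -2.34 and -2.29 in MuRF1 het MuRF2 null arrays. It is a classic target of the amino acid response, in which ATF4 binds a site of the form TGATGNAA. Among the 12 of the 15 largest rises with a promoter in the table, Asns alone held that motif on either strand. Of the 117 genes with a promoter that rose in both measures 0.855% held it, against 2.67% of those that fell and 2.76% of all tested (RefSeq, GRCm38.p6, minus strand, chr6:7693160-7693459, match in capitals).
Asns: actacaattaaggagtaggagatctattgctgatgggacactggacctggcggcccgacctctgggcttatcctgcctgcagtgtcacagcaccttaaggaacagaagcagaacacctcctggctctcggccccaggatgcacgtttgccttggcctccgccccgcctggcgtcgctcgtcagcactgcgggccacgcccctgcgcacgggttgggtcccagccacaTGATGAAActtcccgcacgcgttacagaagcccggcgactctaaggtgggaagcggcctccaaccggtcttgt

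The other rises among the 15 were Timm8b, Dnajc15, Serf2, Rpl7a, Celf3, Scgb1a1, Ccl6 and Amy1, by 0.86 to 1.00. Timm8b and Dnajc15 encode parts of the mitochondrial import machinery, Rpl7a a ribosomal protein, Ccl6 a chemokine and Amy1 an amylase. Other probes of Rpl7a (0.30 and 0.43, limma, adjusted p = 0.0817 and 0.13), Timm8b (0.35, adjusted p = 0.231) and Amy1 (0.74, adjusted p = 0.0505) did not pass. Scgb1a1, the secretoglobin of airway club cells, rose by 0.98 in the ratio (limma, adjusted p = 0.0032), but by 0.24 in Cy5 alone (limma, adjusted p = 0.223) while the pup reference differed by -0.53. The 15 rises were chosen for arrays that did not overlap in Cy5 alone either, so Cy5 is no separate support for them. Celf3, Scgb1a1 and Serf2 did not pass there. Larger rises whose arrays overlapped in Cy5, such as Myot (1.36) and Cpa3 (1.32), were left out by this choice. Rbp7, Pdk4, Gsta1, Asns, Twf2, Scgb1a1 and Skp1 passed in each of the 8 fits that left 1 array out. Rpl7a, Serf2, Dnajc15 and Amy1 each passed in 1 of these, and their largest adjusted p was 0.132, 0.125, 0.12 and 0.13 (limma).

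The largest falls after Trim63 included genes of the contractile apparatus and of cardiac conduction. Myocd encodes myocardin, the partner of serum response factor in heart and smooth muscle. Its arrays stood at 0.15, 1.22, 0.49 and 0.78 in MuRF1 null MuRF2 het, against 2.38, 2.26, 2.10 and 2.15 in MuRF1 het MuRF2 null. The difference was -1.56 ± 0.21 (SE; limma, adjusted p = 0.00183), and a second probe fell too, by 0.63 (limma, adjusted p = 0.0358). The wild type mean, 1.57, lay between the 2 groups. MuRF1 null MuRF2 het differed from it by -0.91 and MuRF1 het MuRF2 null by 0.65, and neither difference passed (limma, adjusted p = 0.0537 and 0.127).

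Nebl, the cardiac thin-filament protein nebulette, was 0.16, 1.94, 1.39 and 1.64 in MuRF1 null MuRF2 het arrays, against 2.73, 2.77, 2.56 and 2.46 in MuRF1 het MuRF2 null arrays (difference -1.35, limma, adjusted p = 0.023). Array 1 was the lowest of its group, and both Nebl probes fell. Ppm1k, the phosphatase that switches on branched-chain amino acid breakdown, fell by 1.32 (limma, adjusted p = 0.00547), also in 2 of 2 probes. Slc6a6, the taurine transporter, stood at -1.04, -1.08, -0.91 and -1.16 in MuRF1 null MuRF2 het arrays, against -0.08, 0.10, -0.16 and 0.16 in MuRF1 het MuRF2 null arrays. It fell by 1.05 in the ratio (limma, adjusted p = 0.00192) and by 0.54 in Cy5 alone (limma, adjusted p = 0.0172), with a reference 0.62 higher. In the ratio the MuRF1 het MuRF2 null group lay 0.69 above wild type (limma, adjusted p = 0.0273). In Cy5 alone it ran from 8.82 to 9.22, which overlapped the 8.75 to 9.13 of wild type hearts, and MuRF1 null MuRF2 het arrays, at 8.35 to 8.69, lay below both.

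Some falls rested on 1 of several probes. Dhrs7c, a sarcoplasmic reticulum dehydrogenase, fell by 1.33 with its brighter probe (limma, adjusted p = 0.00411) and was 0.71 higher with the other (limma, adjusted p = 0.0376), so the gene has no settled direction. Nedd4, a HECT ubiquitin ligase, fell by 1.23 (limma, adjusted p = 0.00192), and its other probe differed by -0.07 (adjusted p = 0.806). Ctnna1, the catenin that ties cadherins to actin, fell by 1.04 (limma, adjusted p = 0.0279), and its other probe differed by 0.02 (adjusted p = 0.931). Ppp1r14c, a phosphatase inhibitor, fell by 1.01 (limma, adjusted p = 0.00975) and its other probe differed by -0.19 (adjusted p = 0.566).

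The rest of the 15 falls were Parm1, Crhr2, Kcne1, Cuedc1, Lclat1 and Gja1, by 0.97 to 1.10. Crhr2 is the urocortin receptor of heart muscle, and Lclat1 an acyltransferase that remodels cardiolipin. Cuedc1 was not well above background on any MuRF1 null MuRF2 het array, and its ratio fell there (limma, adjusted p = 0.0096). The falls too were chosen for arrays that did not overlap in Cy5 alone, where Crhr2 did not pass (limma, adjusted p = 0.133). Ttn, which fell by 2.11 in the ratio, overlapped in Cy5 and was left out by this choice. In the fits that left 1 array out, 11 of the 15 passed each time, whereas Parm1 passed in 7, Nebl in 5, Ctnna1 in 3 and Lclat1 in 2 of 8.

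**Figure D3:**
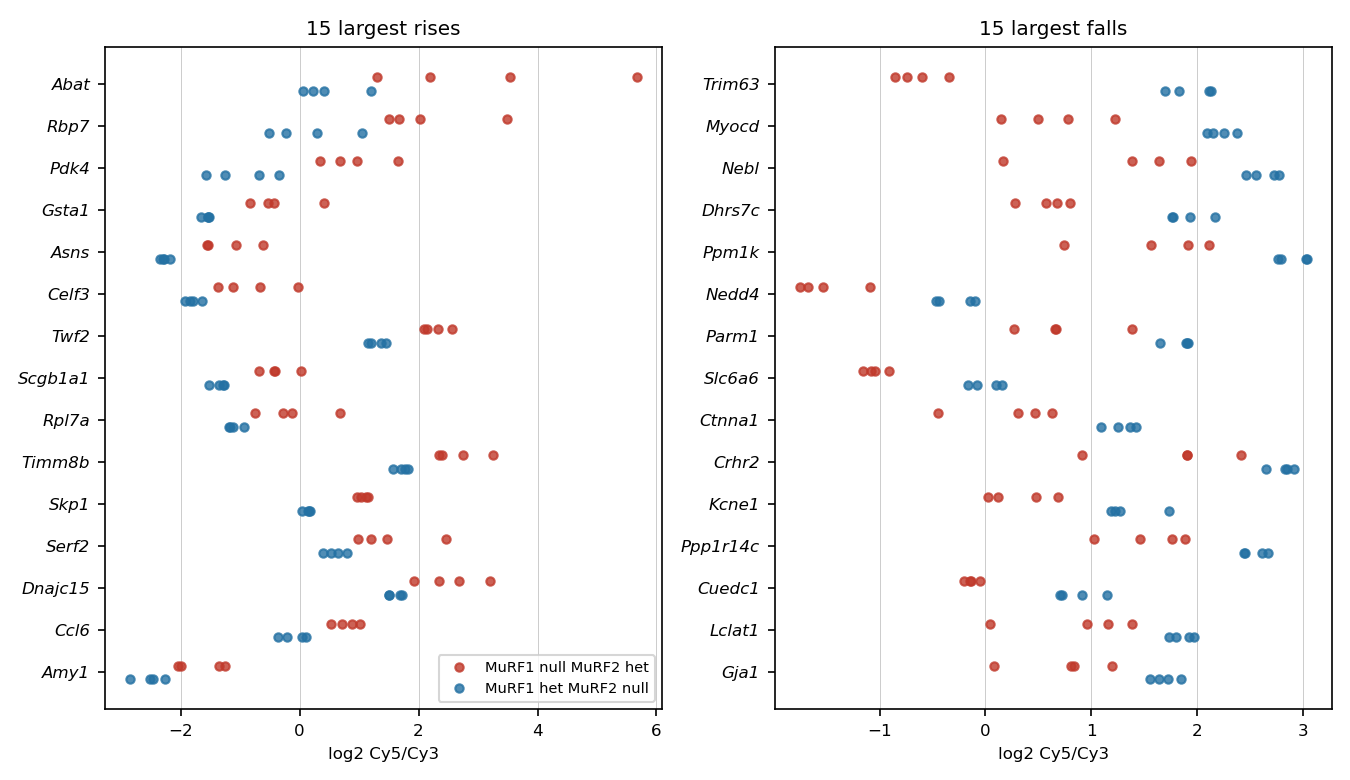
Log2 ratio on each of the 8 arrays for the 15 largest rises (left) and the 15 largest falls (right), MuRF1 null MuRF2 het in red above MuRF1 het MuRF2 null in blue. The groups do not overlap in any row, which the rule that chose the genes required, and the MuRF1 het MuRF2 null arrays lie closer together in most rows.

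Calcium handling and ion channel genes had the lowest median difference of the lists in the ratio, -0.58, against 0.02 for all genes tested. Of 24 measured members, 8 fell and 1 rose (limma, adjusted p under 0.05), where 3.92% of all genes fell and 4.59% rose. The falls included Kcne1 and Kcnq1, which encode potassium channel subunits, Cacna1c and Cacnb2 of the L-type calcium channel, Abcc9 of the KATP channel, the ryanodine receptor Ryr2 and the gap junction gene Gja1. Of the members that passed, 5 falls and no rise also passed in Cy5 alone. There the list median was -0.27, and that of the endothelial markers was lower, at -0.43. Ryr2 differed by -0.08 in Cy5 alone (limma, adjusted p = 0.638), and its other probe did not pass (-0.44, adjusted p = 0.0529). It was well above background on 2 of 4 MuRF1 null MuRF2 het arrays and passed in 3 of 8 fits that left 1 array out. The Feature Extraction log ratio left 1 fall and median centring 2, without a rise.

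Kcne1 stood at 0.03, 0.69, 0.47 and 0.12 in MuRF1 null MuRF2 het arrays, against 1.19, 1.73, 1.22 and 1.28 in MuRF1 het MuRF2 null arrays (difference -1.03, limma, adjusted p = 0.00192). It was below wild type in the first group, by -1.13 (limma, adjusted p = 0.00175), and not in the second, at -0.11 (adjusted p = 0.799). Kcne1 was well above background on 2 of 4 arrays of the first group and 4 of 4 of the second. Gja1, the main connexin of the ventricle, was 0.08, 1.20, 0.81 and 0.84 in MuRF1 null MuRF2 het arrays, against 1.73, 1.85, 1.56 and 1.64 in MuRF1 het MuRF2 null arrays, a fall of 0.97 (limma, adjusted p = 0.0126). Abcc9 fell by 0.91 (limma, adjusted p = 0.0155) with all 3 of its probes. Array 1, the dimmest, was the lowest MuRF1 null MuRF2 het array for Kcne1, Gja1 and Abcc9, and without it 4 members fell, 1 rose and the median was -0.36. The median was below 0 under all 22 settings run, from -0.70 to -0.15. Without MuRF1 het MuRF2 null array 1, 3 members fell, and without MuRF1 null MuRF2 het array 2, 14 did.

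Endothelial markers fell in part. Of 15 measured, 7 fell and none rose (Kdr, Flt1, Tek, Tie1, Eng, Robo4 and Ptprb), with a median of -0.37 and 3 falls that also passed in Cy5 alone. Over all genes 3.92% fell and 4.59% rose. Kdr, the main VEGF receptor, stood at -0.03, 1.04, 0.23 and 0.14 in MuRF1 null MuRF2 het arrays, against 1.34, 0.98, 0.93 and 1.34 in MuRF1 het MuRF2 null arrays (difference -0.80, limma, adjusted p = 0.0231). The groups overlapped through array 2 of MuRF1 null MuRF2 het, and this holds for Ptprb, the endothelial receptor phosphatase, as well (difference -0.88, limma, adjusted p = 0.0139). Tek and Eng fell by 0.47 and 0.39 without overlap. In Cy5 alone Eng passed, at -0.34 (limma, adjusted p = 0.00956). Kdr, Ptprb and Tek did not pass there, at -0.48, -0.46 and -0.27 (limma, adjusted p = 0.0991, 0.0884 and 0.112). The reference was 0.30 higher for Kdr and 0.38 higher for Ptprb, and differed by -0.08 for Tek and -0.20 for Eng. In whole hearts fewer endothelial cells and less RNA per cell cannot be told apart. The summary of the list, the mean ratio over its members on an array, ran from 0.15 to 0.55 in MuRF1 null MuRF2 het, against 0.40 to 0.77 in MuRF1 het MuRF2 null hearts, so that the groups overlapped. Without MuRF1 het MuRF2 null array 1 no endothelial marker passed (11 had an unadjusted limma p under 0.05), 1 did without MuRF1 null MuRF2 het array 1 or 3 or MuRF1 het MuRF2 null array 4, 2 without MuRF1 het MuRF2 null array 2, 3 without array 3 of that group or array 4 of MuRF1 null MuRF2 het, and 9 without MuRF1 null MuRF2 het array 2. The Feature Extraction log ratio left 1 and median centring none (8 had an unadjusted limma p under 0.05).

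Sarcomere genes moved in both directions. Of 32, 6 rose (Tnnt2, Tnni3, Tnnc1, Myoz2, Myot and Cryab) and 3 fell (Ttn, Myom1 and Nebl), with a median of 0.13 in the ratio and -0.26 in Cy5 alone. The shares over all genes were 4.59% higher and 3.92% lower. Without MuRF1 het MuRF2 null array 1 there were 1 rise and 1 fall, without array 2 of that group 1 and 2 and without array 4 2 and 2. Without MuRF1 null MuRF2 het array 1, 3 or 4 there were 4 and 2, 2 and 1, and 3 and 3. The Feature Extraction log ratio gave 1 rise and 2 falls and a median of -0.05, median centring no rise, 2 falls and -0.68, and Cy5 alone 1 rise and 7 falls. Of the 9 calls, 1 rise (Myot) and all 3 falls passed in Cy5 with the same direction. Tnni3 went the other way, with 0.65 in the ratio (limma, adjusted p = 0.0272) but -0.32 in Cy5 alone (limma, adjusted p = 0.0118).

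Ttn encodes titin, the protein that MuRF1 binds. Its brightest probe stood at -2.20, -0.86, -2.16 and -1.99 in MuRF1 null MuRF2 het arrays, against 0.92, -0.13, -0.57 and 0.99 in MuRF1 het MuRF2 null arrays. The difference was -2.11 ± 0.34 (SE; limma, adjusted p = 0.00383), and the pup reference was 0.60 higher at the same probe. Of 9 Ttn probes, 7 fell, by 0.86 to 2.11, and the other 2 differed by -0.30 and 0.04. The gene makes several isoforms, and the probes were not assigned to them. Myot, the Z-disc protein myotilin, was -0.70, -1.18, -1.51 and -0.29 in MuRF1 null MuRF2 het arrays, against -2.23, -2.84, -1.68 and -2.34 in MuRF1 het MuRF2 null arrays (difference 1.36, limma, adjusted p = 0.0174). Myot passed in 6 of 8 fits that left 1 array out, with a largest adjusted p of 0.0581.

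The genes that mark the fetal programme of a stressed heart did not separate the 2 groups. Myh7, the slow myosin heavy chain, was -0.93, 0.55, -2.00 and 0.13 in MuRF1 null MuRF2 het arrays, against -1.41, -0.82, 0.39 and -0.81 in MuRF1 het MuRF2 null arrays. Arrays of both groups were scattered over about the same range, and the 95% interval of the difference ran from -1.43 to 1.64. Double null hearts averaged 2.36 and wild type hearts -2.07. Nppa and Nppb, the natriuretic peptides, differed by -0.39 and -0.37 (limma, adjusted p = 0.51 and 0.493). A second Nppa probe differed by -0.72 (limma, adjusted p = 0.153). Nppa averaged 2.80 in MuRF1 null MuRF2 het, 3.18 in MuRF1 het MuRF2 null, 5.21 in double null and 2.31 in wild type hearts. Myh6, the fast myosin of the adult heart, differed by -0.76 (limma, adjusted p = 0.123), with 2.28, 4.01, 3.49 and 3.55 in MuRF1 null MuRF2 het arrays, against 4.07, 3.93, 4.14 and 4.22 in MuRF1 het MuRF2 null arrays. The 95% interval of this difference ran from -1.41 to -0.11, and a second Myh6 probe differed by -0.97 (limma, adjusted p = 0.1). In Cy5 alone Myh6 was 1.64 lower (limma, adjusted p = 0.0252), without overlap of the groups, and with the reference -0.39 lower too. The skeletal actin Acta1, the growth factor Ccn2, the stress cytokine Gdf15 and the kinase Nmrk2 differed by -0.24, 0.45, -0.04 and 0.57, none of which passed. In Cy5 alone Acta1 and Nmrk2 differed by -0.61 and 0.73 and did not pass (limma, adjusted p = 0.0796 and 0.144). For both genes the arrays of the groups did not overlap in Cy5. Of the 27 genes in the fetal and hypertrophic list, Fhl2 rose and Nfatc1 and Tbx5 fell, and Fhl2 alone passed in Cy5 as well. Over all genes 4.59% rose and 3.92% fell. Fhl2, Nfatc1 and Tbx5 each passed in 1 of the 8 fits that left 1 array out. No member passed with the Feature Extraction log ratio or median centring, where 6 and 6 had an unadjusted limma p under 0.05. In this list 10 genes had an unadjusted limma p under 0.05, as did 3493 of all 12345 genes.

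Genes for glutathione and antioxidant defence rose in part. Of 35 measured, 27 lay above 0, 10 rose and none fell: Gsta1, Gsta2, Gstm5, Cat, Prdx1, Txn1, Txn2, Txnrd1, Hmox1 and Srxn1. Of all 12345 genes 6541 lay above 0, 4.59% rose and 3.92% fell. The list median was 0.30 in the ratio and 0.17 in Cy5 alone, and 6 of the 10 passed in Cy5 with the same direction. Gsta2, a second glutathione transferase, was 0.18, 0.04, -0.03 and 0.64 in MuRF1 null MuRF2 het arrays, against -0.57, -0.56, -0.50 and -0.50 in MuRF1 het MuRF2 null arrays. It was well above background on 3 of 4 and 0 of 4 arrays, and its ratio was 0.74 higher (limma, adjusted p = 0.00655). Gsta1 and Gsta2 are near-identical relatives whose probes may share transcripts. Prdx1, a peroxiredoxin, rose by 0.43 (limma, adjusted p = 0.0139). Txnrd1, the thioredoxin reductase, rose by 0.44 in the ratio (limma, adjusted p = 0.00515) and differed by 0.09 in Cy5 alone (adjusted p = 0.451), where the reference was -0.30 lower. With the Feature Extraction log ratio 2 members rose. The list median was above 0 under all 22 settings except median centring, where it was -0.16 and no member passed (2 had an unadjusted limma p under 0.05). Leaving out single arrays gave 3 rises (without MuRF1 het MuRF2 null array 1) to 14 (without MuRF1 null MuRF2 het array 2), with 5, 6 and 5 without MuRF1 null MuRF2 het array 1, 3 or 4 and 4, 6 and 4 without MuRF1 het MuRF2 null array 2, 3 or 4.

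Fuel oxidation genes rose in part. Of 33 fatty acid oxidation genes, 6 rose (Pdk4, Acadl, Etfa, Etfdh, Fabp3 and Mlycd) and Ucp3 fell, with a median of 0.12 in the ratio and -0.12 in Cy5 alone. Over all genes 4.59% rose and 3.92% fell. Pdk4 and 2 others also passed in Cy5, where 4 were higher and 3 lower in all. Median centring gave a median of -0.41 and no call (4 had an unadjusted limma p under 0.05), and the Feature Extraction log ratio 3 rises. Etfdh, which passes electrons from fat oxidation to the respiratory chain, rose by 0.47 (limma, adjusted p = 0.0231) with the MuRF1 het MuRF2 null hearts 0.59 below wild type (limma, adjusted p = 0.0131), but its other probe differed by -0.06. Acadl, a long-chain acyl-CoA dehydrogenase, rose by 0.55 in the ratio (limma, adjusted p = 0.0306) and differed by 0.08 in Cy5 alone, with the reference -0.43 lower. Single arrays decided much of this count, since 1 member rose without MuRF1 null MuRF2 het array 3 or without MuRF1 het MuRF2 null array 1, 2 or 3, and 2 or 3 without array 4 of either group. Of 75 oxidative phosphorylation genes 57 lay above 0, with a median of 0.31, but Uqcrfs1 of complex III was the only one to pass (0.67, limma, adjusted p = 0.0163). With median centring this median was -0.69, with Cy5 brightness as a covariate -0.09, and without MuRF1 null MuRF2 het array 2 there were 11 rises. Of 26 glycolysis genes Pfkfb1 alone rose (0.98, limma, adjusted p = 0.0139).

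**Figure D4:**
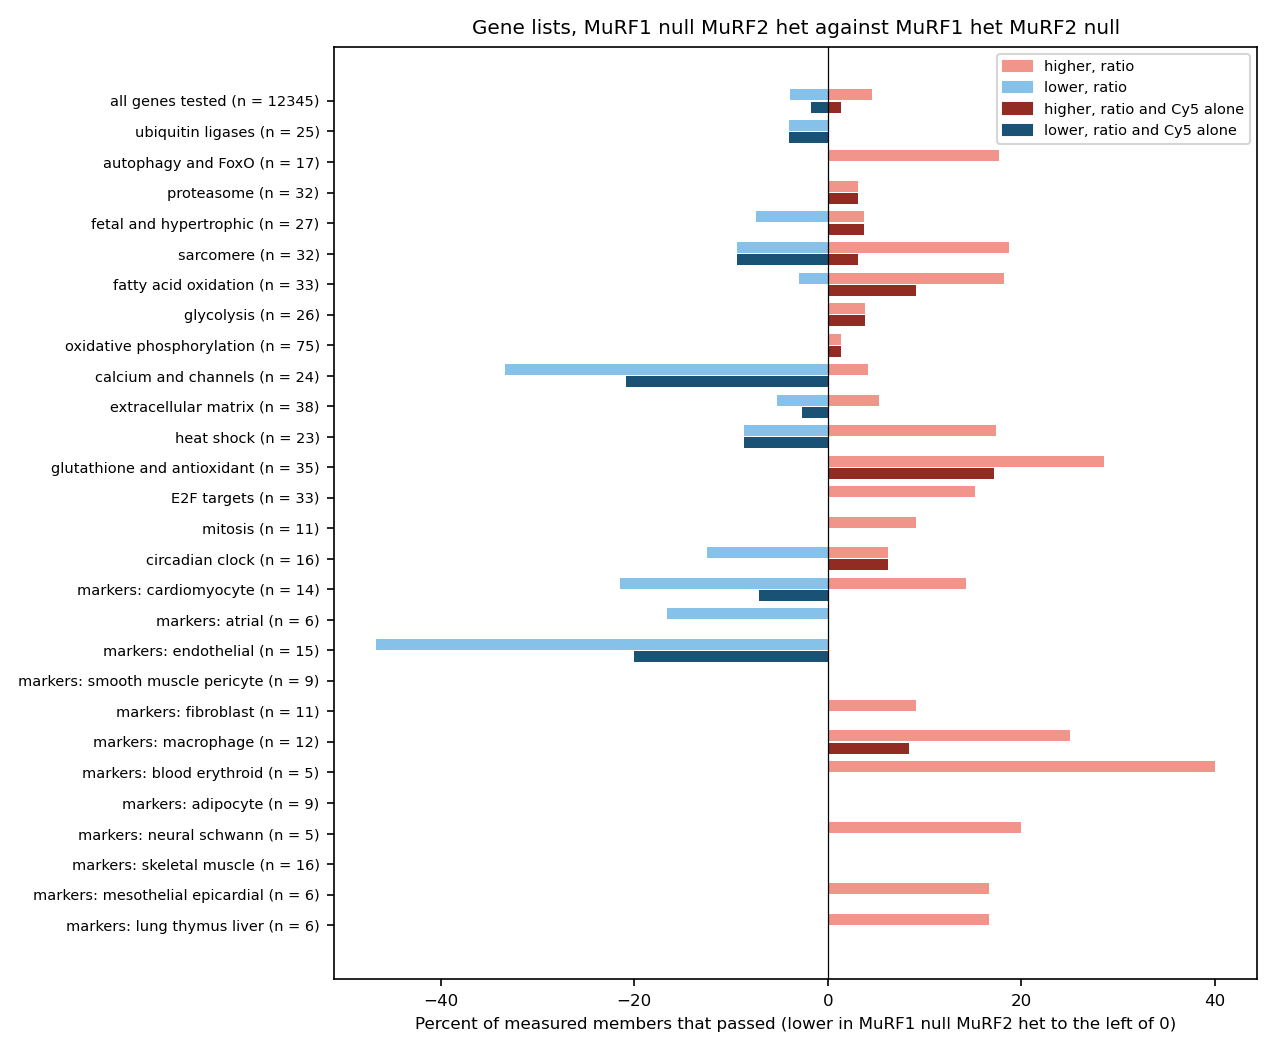
Share of the measured members of each gene list that passed, higher in MuRF1 null MuRF2 het to the right of 0 and lower to the left, in the ratio (light bars) and in the ratio and Cy5 alone (dark bars). Lists with fewer than 5 measured members are not drawn. Calcium and channel genes and endothelial markers reach furthest left, and among the dark bars that of the glutathione and antioxidant genes, 6 of 35, reaches furthest right.

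In several other lists the calls came with a reference that differed between the groups. E2F1 partners and targets, which drive DNA replication, had 5 rises and no fall among 33 (E2f1, Tfdp1, Ccna2, Mcm7 and Cdkn1a, median 0.21), and none of them passed in Cy5 alone. Over all genes 4.59% rose and 3.92% fell. Mcm7, a subunit of the replicative helicase, was 0.59 higher in the ratio (limma, adjusted p = 0.0293) but -0.12 in Cy5, with a reference -0.54 lower. Cdkn1a, the cell cycle inhibitor p21, was 0.69 higher in the ratio (limma, adjusted p = 0.014) and differed by 0.00 in Cy5, with a reference -0.38 lower. E2f1 itself stood at 0.23, 0.09, 0.17 and 0.07 in MuRF1 null MuRF2 het arrays, against -0.10, -0.15, -0.07 and -0.11 in MuRF1 het MuRF2 null arrays (difference 0.25, limma, adjusted p = 0.0294). It was above background on 3 of 4 and 0 of 4 arrays, at least 1.13-fold higher, and kept its call in 2 of 8 fits that left 1 array out. Leaving out array 1 of MuRF1 null MuRF2 het, or array 1, 2 or 4 of MuRF1 het MuRF2 null, left 1 rise in this list. Of 11 mitosis genes all lay above 0 and Kif20a, a mitotic kinesin, alone rose, by 0.91 in the ratio (limma, adjusted p = 0.0114), with a difference of 0.09 in Cy5 alone.

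For the matrix genes Eln and Col6a1 too the reference differed between the groups. Eln, which encodes elastin, was -0.49, -1.15, -0.82 and -0.93 in MuRF1 null MuRF2 het arrays, against -1.68, -1.73, -1.68 and -1.74 in MuRF1 het MuRF2 null arrays. The ratio rose by 0.86 (limma, adjusted p = 0.00366), yet Cy5 alone was 0.40 lower, at -0.40 (limma, adjusted p = 0.0189), and the reference differed by -0.91. Col6a1, a collagen VI chain, gave 0.86 in the ratio, -0.15 in Cy5 and -0.84 in the reference. Of 38 matrix genes these were the 2 that rose, and Timp3, an inhibitor of matrix proteases, and Col15a1 fell, by 0.88 and 0.49. These counts are near the shares over all genes, 4.59% higher and 3.92% lower. Timp3 fell by 0.87 in Cy5 as well (limma, adjusted p = 0.0132). In Cy5 alone 12 matrix genes were lower and none higher, where 7.73% of all genes were lower and 6.84% higher.

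Autophagy and FoxO genes gave 3 rises among 17 (Bnip3, Map1lc3b and Atg5), none of which passed in Cy5. The share of all genes that rose was 4.59%. In each fit that left 1 array out, other than MuRF1 null MuRF2 het array 2, 1 member rose, and Map1lc3b and Atg5 each passed in 1 of the 8. Median centring left none, with none at an unadjusted limma p under 0.05 either. Bnip3, a mitophagy receptor, was 1.20, 0.54, 1.11 and 0.76 in MuRF1 null MuRF2 het arrays, against -0.26, -0.09, 0.15 and -0.18 in MuRF1 het MuRF2 null arrays (difference 1.00, limma, adjusted p = 0.00555). Its reference was -0.39 lower, and Cy5 alone differed by 0.52 (limma, adjusted p = 0.0506). Of 23 heat shock genes, Hsp90aa1, Hspa8, Hspb1 and Cryab rose and Hspd1 and Dnajb5 fell. Both falls and none of the rises passed in Cy5. Among all genes 4.59% rose and 3.92% fell in the ratio. In 6 of the 8 fits that left 1 array out no member fell (all but those without MuRF1 null MuRF2 het array 2 or 4), and 2 rose without MuRF1 null MuRF2 het array 1 or MuRF1 het MuRF2 null array 1, 2 or 4. Hspd1 passed in 1 of the 8. With the Feature Extraction log ratio 1 rose and none fell, and with median centring none passed (2 had an unadjusted limma p under 0.05). Cryab, the small heat shock protein of the Z-disc, rose by 0.57 with its brighter probe (limma, adjusted p = 0.00382) and differed by -0.45 with the other (adjusted p = 0.0998).

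Protein turnover is the process in which MuRF proteins act. Of 25 other muscle ubiquitin ligase genes Nedd4 alone passed, with 1 of its 2 probes, and the median was -0.14. Of 32 proteasome genes Psmc5 alone rose, by 0.34 (limma, adjusted p = 0.0304), and its other probe differed by 0.03. These counts are near the shares over all genes, of which 3.92% fell and 4.59% rose. Among 16 clock genes Nfil3 rose by 0.62 and Nr1d1 and Hlf fell by 0.90 and 0.82 (limma, adjusted p = 0.0481, 0.026 and 0.0285). In Cy5 alone Nfil3 passed, at 0.90 (limma, adjusted p = 0.00728). Nr1d1 and Hlf did not pass there, at -0.39 and -0.43 (limma, adjusted p = 0.0882 and 0.0769). The second Nfil3 probe rose by 0.51 (limma, adjusted p = 0.02), and the second Nr1d1 probe differed by -0.10 (adjusted p = 0.344). Nfil3 lost its call in all 8 fits that left 1 array out, Nr1d1 in 7 and Hlf in 5. The time of day at which hearts were taken is not given in the labels.

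Markers of other cell types were read beside these groups. Cardiomyocyte markers had a mean ratio of 2.86 to 3.02 in MuRF1 null MuRF2 het, against 3.00 to 3.22 in MuRF1 het MuRF2 null hearts. Tnnt2 and Tnni3 were higher and Ryr2, Corin and Ttn lower among 14, where 4.59% of all genes rose and 3.92% fell. Of these calls only that of Ttn passed in Cy5 with the same direction. Corin and Ryr2 differed by -0.26 and -0.08 in Cy5 alone (limma, adjusted p = 0.112 and 0.638). Each passed in 3 of the 8 fits that left 1 array out. All 12 macrophage markers lay above 0, as did 6541 of all 12345 genes. Lyz2, C1qc and Lyve1 rose, of which Lyz2 alone passed in Cy5 (0.98 in the ratio and 0.76 in Cy5, limma, adjusted p = 0.0148 and 0.0307). C1qc also lies within 10 Mb of Trim63. C1qc passed in 2 and Lyve1 in 1 of the 8 fits that left 1 array out. No macrophage marker rose without MuRF1 null MuRF2 het array 3 (4 had an unadjusted limma p under 0.05), and 1 did without array 1 of that group or any single MuRF1 het MuRF2 null array. None rose with the Feature Extraction log ratio or median centring, where 4 and 1 had an unadjusted limma p under 0.05. The second Lyve1 probe differed by -0.0033, the second Lyz2 probe by 0.01, and the macrophage mean ran from -0.03 to 0.28 in MuRF1 null MuRF2 het, against -0.17 to -0.06 in MuRF1 het MuRF2 null hearts. Of 11 lymphocyte markers Ptprc, the common leukocyte antigen, was the one measured, and it rose by 0.29 (limma, adjusted p = 0.0263) with a difference of 0.02 in Cy5 alone. The lists of fibroblasts (Mfap5, 1 of 11), epicardium (Aldh1a2, 1 of 6), nerve (Ngfr, 1 of 5), platelets and red cells (Ppbp and Pf4, 2 of 5) and lung, thymus and liver (Scgb1a1, 1 of 6) each had calls higher in the ratio, by 0.40 to 0.98, none of which passed in Cy5. Of the group with the higher ratio, Ppbp was well above background on 0 of 4 arrays and Mfap5 and Ngfr on 1 of 4. Single calls in lists of this size stand beside 4.59% of all genes. Of 6 atrial markers Tbx5 alone passed, as a fall. None of 9 smooth muscle and pericyte markers passed (limma), although 3 had an unadjusted p under 0.05, and those with the smallest p, Rgs5 and Pdgfrb, differed by -0.66 and -0.45. In Cy5 alone both passed as falls, at -0.79 and -1.05 (limma, adjusted p = 0.00839 and 0.0018), with references at -0.27 and -0.45. None of 9 adipocyte markers passed either, with 4 at an unadjusted p under 0.05, and Cidec and Adipoq differed by 0.84 and 0.69. Of 16 skeletal muscle markers none passed and 3 had an unadjusted p under 0.05, and Actn3 and Tnni1 differed by 0.63 and 0.57. For lists with low ratios, such as adipocyte markers, the mean ran from -2.05 to -0.86 in MuRF1 null MuRF2 het, against -2.23 to -2.02 in MuRF1 het MuRF2 null hearts. The part of cell composition in the differences above was not tested.

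Gene length moved with the contrast. Of the tested genes, 11147 have a length in the RefSeq table, introns included. In the shortest quintile, with a median of 4.06 kb, 6.50% were higher and 1.66% lower in MuRF1 null MuRF2 het hearts. In the longest quintile, with a median of 114.48 kb, 2.87% were higher and 7.09% lower. Among calls that passed in both measures the counts were 45 higher and 13 lower in the shortest quintile, against 15 higher and 86 lower in the longest. The median difference fell with each quintile, and was 0.08, 0.03, 0.02, 0.00 and -0.04 from short to long. Of the 15 largest falls, chosen as above, 9 were in the longest quintile and none in the shortest. Of the 15 largest rises, chosen in the same way, 1 was in the longest and 5 in the shortest. The lengths of the lists were set beside their medians. The calcium and channel genes had a median length of 54.41 kb and the endothelial markers of 42.89 kb, against 13.04 kb for the antioxidant genes and 7.08 kb for oxidative phosphorylation. The matrix genes were long as well, at 38.42 kb, with a median difference of 0.17 in the ratio and -0.29 in Cy5 alone. The smooth muscle markers, at 34.77 kb, had medians of 0.11 in the ratio and -0.10 in Cy5 alone. The heat shock genes were short, at 5.48 kb, with 0.08 in the ratio and -0.07 in Cy5 alone. On single arrays the median of the shortest quintile minus that of the longest, each gene taken relative to its mean over all arrays, was 0.11, -0.03, 0.07 and 0.02 in MuRF1 null MuRF2 het. It was -0.10, -0.10, -0.05 and -0.07 in MuRF1 het MuRF2 null, 0.02 to 0.21 in double null and -0.16 to 0.00 in wild type arrays. The part of RNA quality in this was not tested.

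**Figure D5:**
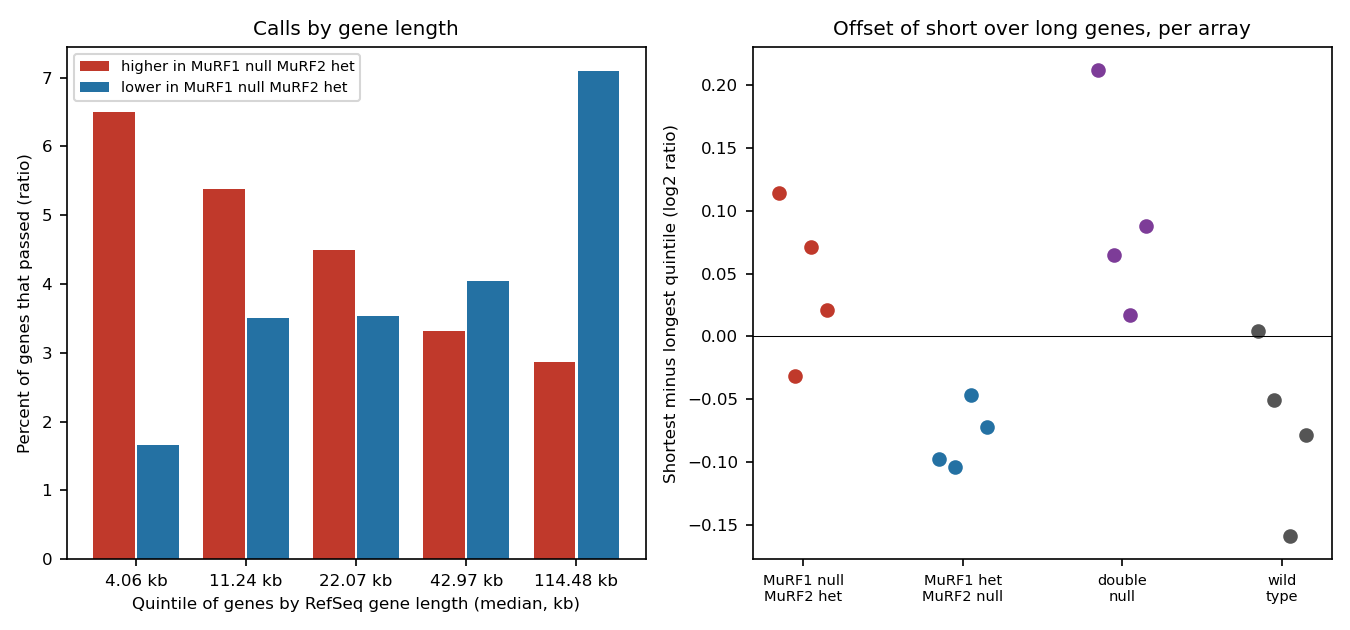
Left, percent of genes that passed in the ratio as higher (red) or lower (blue) in MuRF1 null MuRF2 het hearts, by quintile of RefSeq gene length; right, the median of the shortest minus that of the longest quintile on each array. Higher calls make up 6.50% of the shortest and 2.87% of the longest quintile, and lower calls 1.66% and 7.09%, and the 4 MuRF1 null MuRF2 het arrays lie above the 4 MuRF1 het MuRF2 null arrays.

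Genes beside the targeted loci were looked at because a knockout allele carries the DNA around it. Within 10 Mb of Trim63 on chromosome 4, 19 of 210 genes passed (9.05%), 8 higher and 11 lower, against 46 of 491 on the rest of the chromosome (9.37%) and 8.51% of all genes. Within 10 Mb of Trim55 on chromosome 3, 3 of 27 passed (11.1%), against 50 of 531 (9.42%). These shares were near the share of all genes. The neighbours of Trim63 that passed with the smallest p were Stx12, a syntaxin of endosomes, which rose by 0.69 (limma, adjusted p = 0.00168), and Fuca1, a lysosomal fucosidase, which rose by 0.59 (limma, adjusted p = 0.00192). Stx12 stood at 0.41, 0.33, 0.24 and 0.54 in MuRF1 null MuRF2 het arrays, against -0.42, -0.29, -0.20 and -0.35 in MuRF1 het MuRF2 null arrays. Fuca1 rose with both of its probes and in Cy5 alone. Fuca1 averaged -0.06 in MuRF1 null MuRF2 het and 0.05 in double null hearts, against -0.64 in MuRF1 het MuRF2 null and -0.66 in wild type hearts. Stx12 averaged 0.38, 0.34, -0.31 and 0.25 in the same order. MuRF1 null MuRF2 het lay above wild type by 0.60 for Fuca1 and 0.12 for Stx12 (limma, adjusted p = 0.00339 and 0.4). The part of the DNA around the knockout allele in this was not tested. Clic4, an intracellular chloride channel protein, fell by 0.50 (limma, adjusted p = 0.0236), and by 0.66 in Cy5 (limma, adjusted p = 0.00232). Fblim1, an actin-linking LIM partner, Mtf1, the metal-response factor, and Camk2n1, an inhibitor of CaMKII, fell by 0.39 to 0.71 and Marcksl1 rose by 0.70, none of them passing in Cy5. C1qc, read above as a macrophage marker, is a neighbour too. It rose by 0.40 in the ratio (limma, adjusted p = 0.0277) and by 0.22 in Cy5 alone (limma, adjusted p = 0.266). Near Trim55, Rbis, a ribosome biogenesis factor, rose by 0.46 (limma, adjusted p = 0.0422) and by 0.56 in Cy5 (limma, adjusted p = 0.015). The mast cell protease Cpa3 was 1.32 higher in the ratio (limma, adjusted p = 0.0136) and differed by -0.05 in Cy5 alone, with a reference -0.73 lower.

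The promoters of the genes that moved together were searched for the CArG box, the site of serum response factor, because its partner Myocd fell. Of the 150 genes that fell in both measures and have a promoter in the table, 6 (4%) held the motif on either strand, against 2 of 117 (1.71%) that rose in both and 1.78% of all tested genes with a promoter. Lclat1 and Nebl were the 2 of the 15 largest falls that did. The E-box CACGTG was found in 10% of those that fell and 10.3% of those that rose, against 11.8% of all tested. No test was made of these shares.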

How the data were processed

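Heart RNA of 16 biological replicates, 4 per genotype, was measured on 2-colour Agilent arrays. Per the file headers, the deposited array files hold mean spot and median background intensity in both colours, and a log10 ratio of Cy5 over Cy3 made in Agilent Feature Extraction with background correction and dye normalisation. The deposited series matrix holds log2 ratios, whose values equal that log ratio on a log2 scale minus each probe's median over the 16 arrays. The labelling protocol names only Cy3-CTP, and the channel entries of the labels (hearts Cy5, pups Cy3) were followed. The authors' gene test and the genome build of the probe coordinates are not stated in the material used here.

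Intensities were processed in R 4.3.3 with limma 3.58.1. Background was corrected by normexp (offset 50), ratios were normalised by loess within each array with control and irregular spots at weight 0, and spots of a probe were averaged (41174 probes). Cy5 alone and Cy3 alone were quantile normalised between arrays. A probe was kept if Feature Extraction called its Cy5 signal well above background on 4 or more of the 16 arrays (16827 probes), and the brightest probe stood for a gene (12345 genes). The fit held all 16 arrays with 1 mean per genotype. Tests are two-sided, with Benjamini-Hochberg adjustment over all genes and a threshold of 0.05. A bound ("at least") takes, for the dim group, the higher of the probe's own Cy5 signal and the lowest signal well above background on each array, as means of normalised log2 values, and is open to dye bias since no dyes were swapped. It is given only where the ratio and Cy5 alone show no smaller fold. The number of arrays limits the precision.

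Named genes were Trim63, Trim55, Trim54, 8 stress genes, up to 4 per list with the smallest p that passed, up to 8 passing neighbours of a target, and the 15 largest rises and falls among genes that passed, did not overlap in the ratio or in Cy5 alone, and were above background on 4 or more of their 8 arrays, without clones, predicted genes and pseudogenes. Members, lists and rule were chosen with earlier results of these data known. The procedure was tested on simulated data. Symbols and promoters came from RefSeq (GRCm38.p6), matched through an accession (22951 probes), a symbol (6659) or a synonym (3109), while 8455 kept the file's name. The alternatives tried are given with their effect at the end. Some results are not reported here.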

Additional observations from a re-analysis of the deposited data

Results flagged for a closer look

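In each group of 4 arrays, a named gene was marked where 1 array stood apart from the other 3 by Dixon's test at 95%. Of 214 groups tested 19 were marked, and chance marks about 1 in 20.

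In MuRF1 null MuRF2 het hearts, array 1 stood apart for Hspb1 (0.66, others 0.06 to 0.16), Hspd1 (-0.54, others -0.03 to 0.07), Corin (0.46, others 1.44 to 1.59), Adipoq (-1.57, others -3.04 to -2.85) and Rbis (0.95, others 0.25 to 0.32). That array had the fewest Cy5 probes above background of the 8, 6420. Array 2 stood apart for Acta1 (-3.08, others -2.77 to -2.73), Ttn (-0.86, others -2.20 to -1.99) and Pfkfb1 (0.00, others 0.67 to 0.77). Array 3 was low for Trim54 (2.41, others 2.65 to 2.68), and array 4 high for Mtf1 (0.45, others 0.02 to 0.09).

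In MuRF1 het MuRF2 null hearts, array 1 stood apart for Col6a1 (-1.59, others -1.79 to -1.76), Corin (2.08, others 2.35 to 2.40) and Ptprc (-0.40, others -0.49 to -0.48). Array 2 did for Gsta1 (-1.65, others -1.54 to -1.52) and Kcne1 (1.73, others 1.19 to 1.28). Array 3 was high for Nppa (4.03, others 2.85 to 2.94) and Hsp90aa1 (-1.66, others -1.95 to -1.90) and low for Parm1 (1.65, others 1.89 to 1.91) and Adipoq (-3.41, others -3.25 to -3.22).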

How the results depend on the processing

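Counts are given as genes changed, higher and lower, and gene values are differences that changed sign under the setting named. Cy5 alone gave 1798 changed and 954 lower, Trim55 passed at 1.73, and Nppb was 0.11, Myh7 -0.050, Gdf15 0.039, Map1lc3b -0.044, Eln -0.40, Col6a1 -0.15, Tfdp1 -0.14, Mcm7 -0.12, Tnni3 -0.32, Mfap5 -0.036, Ppbp -0.069, Ngfr -0.12, Actn3 -0.26, Marcksl1 -0.13 and Cpa3 -0.049. The Feature Extraction log ratio gave 290, 112 and 178, and the series matrix 288, 111 and 177, with Nppb at 0.49, Myh7 at -0.12, Ppbp at -0.011 and Actn3 at -0.25 in both, and Ngfr at -0.33 and -0.32. Median centring gave 358, 235 and 123. It turned Trim55 (-0.23), Trim54 (-0.47), Rpl7a (-0.15), Serf2 (-0.026), Myh7 (-0.92), Ccn2 (-0.23), Gdf15 (0.050), Map1lc3b (-0.40), Psmc5 (-0.11), Fhl2 (-0.27), Cryab (-0.27), Etfdh (-0.29), Etfa (-0.60), Acadl (-0.12), Uqcrfs1 (-0.22), Hspb1 (-0.083), Hsp90aa1 (-0.22), Txnrd1 (-0.057), Prdx1 (-0.26), Tnni3 (-0.31), C1qc (-0.088), Pf4 (-0.047) and Rbis (-0.17). Without background correction 368 genes were higher, and Gdf15 was 0.049. Array weights gave 3479, 1951 and 1528, with Gdf15 at 0.037, and scaling between arrays put Myh7 at -0.0054. With Cy5 brightness as a covariate Trim55 was -0.19, Nppb 0.084 and Gdf15 0.63. Only probes above background on all 8 arrays left 5421 genes and 473, 280 and 193 calls. Only the 5492 genes without a reference difference, a setting chosen after seeing the data, left 310, 114 and 196. Other probes gave -0.22 for Trim63 (not passed), Myh7 -0.089, Lyve1 -0.0033, Dhrs7c 0.71, Cryab -0.45, Ctnna1 0.022, Mtf1 0.023, Etfdh -0.065 and Ttn 0.035. Leaving out 1 array gave 228 to 2103 changed, 121 to 1183 higher and 107 to 920 lower, Gdf15 from -0.16 to 0.13 and Myh7 from -0.27 to 0.58. The difference in Cy5 probes above background ran from -6335 to -3450, and without 1 of the MuRF1 het MuRF2 null arrays, at -5332 to -4912, it no longer passed (exact permutation p = 0.0571). Beyond the construction of each setting the cause of these changes was not tested. Of the 90 genes named as passing, 90 kept their call with slide as a random block (consensus correlation -0.0076). Each group lay on its own slide, so that block cannot take out a slide difference between them. With scaling 83 of the 90 kept their call, and 46 did in Cy5 alone. The Feature Extraction log ratio kept 27, median centring 20, and leaving out 1 array 35 to 89. Trim63 passed with its brighter probe under each setting except the one that asks for all 8 arrays above background, which dropped it. The deviations of arrays with the same number correlated at 0.02, 0.11, 0.17 and -0.32, so the numbers do not pair the arrays. With the replicate block 795 genes passed, 427 higher and 368 lower, 752 of them among the 1051, and 80 of the 90 calls were kept. Genes near background limit the precision most on MuRF1 null MuRF2 het array 1, which had 6420 Cy5 probes above it.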
